A study of Rattus norvegicus with 18 samples.

Results

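The nuclear genome encodes most subunits of the mitochondrial respiratory chain and of ATP synthase, and the genes described here are rat genes named for these complexes. They were chosen by name, as genes whose symbols begin with Ndufa, Ndufb, Ndufc, Ndufs or Ndufv and a number (complex I), Uqcr (complex III), Cox4 to Cox8 (complex IV) or Atp5 (ATP synthase), and that do not lie on the mitochondrial chromosome. Of 32882 genes listed in each table, 85 had such a name, and 69 of these had a mean normalized count of at least 10 in at least 1 of 3 tables. These 69 members were 32 of complex I, 9 of complex III, 12 of complex IV and 16 of ATP synthase, and 65 passed in all 3 tables. Of the names that passed in no table, Cox4i2, Cox6a2, Cox6b2, Cox7a1, Cox7b2, Cox8b, Cox8c and Ndufa4l2 were at 0 throughout, and Ndufa1, Ndufa12, Ndufs5, Ndufs6, Ndufv3 of chromosome 13, Ndufa10l1 of chromosome 6, Atp5pb and Cox6c-ps1 were below the minimum. The Ndufs6 row is labelled a processed pseudogene. Ndufb4 passed in the parenchyma only, Atp5md in the Ets1 spleen table only, and Ndufb6 and Cox7a2l2 in the Grk2 table only.

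The libraries held RNA of CD4+ T cells specific for myelin basic protein (T-MBP cells), grown in culture, edited with CRISPR, restimulated with the antigen and transferred into Lewis rats, from which they were sorted on day 3. Ets1-KO cells and their controls were taken from the parenchyma of the spinal cord and from spleen, Grk2-KO cells and theirs from spleen alone, with 3 libraries in each of 6 groups. KO cells carried EGFP and control cells BFP with a non-targeting guide, so that the fluorescent protein and the genotype cannot be told apart. Reads came from the 3′ ends of transcripts, and a normalized count is the number of reads on a gene divided by the size factor of its library, within 1 of 3 tables (Ets1 parenchyma, Ets1 spleen, Grk2 spleen) that were scaled separately.

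Complex I passes electrons from NADH to ubiquinone, complex III from ubiquinol to cytochrome c, and complex IV from cytochrome c to oxygen. The proton gradient that they build drives ATP synthase, a rotary enzyme of the inner membrane. Activated T cells use this machinery beside glycolysis, and a few of its subunits, among them the proton channel part of ATP synthase, are encoded by the mitochondrial genome and are no members here.

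A library held between 898092 and 2248258 reads on genes, and the spleen Ets1-KO libraries (1909862 to 2248258) were deeper than their controls (898092 to 1213485). All 7 T cell markers examined were found in each table, with a summed normalized count between 3112 and 4189 per library. The 6 B cell markers summed to at most 13.1, and Pax5 was at 0 in all 3 tables. The 10 myeloid markers summed to between 25.4 and 51.1 in control and between 41.4 and 67.7 in Ets1-KO libraries of the parenchyma, with Cd163 at 0, and to lower sums in the spleen, between 0 and 7.83 in controls. The part of these cells in the changes below was not tested, and in bulk RNA fewer cells of a type and less RNA per cell cannot be told apart. Grk2 fell from 158 ± 14.1 to 68.3 ± 17.4 (SD, n = 3; log2 fold change −1.22, limma, adjusted p = 1.76e-12). The RNA of Ets1 was not called lower, at 2400 ± 150 (control) and 2551 ± 183 (KO) in the parenchyma and 2077 ± 135 and 2000 ± 324 in the spleen (SD, n = 3; limma, adjusted p = 0.56 and 0.854). Reads from the 3′ end do not show an edit elsewhere in the transcript, so that these Ets1 values do not check the labels.

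In Ets1-KO cells of the parenchyma the members lay slightly higher as a group, and Uqcrq was the only one that passed the test. Of 66 members tested, 51 had a log2 fold change above 0, against 45.4% of all 7002 genes tested. The median log2 fold change was 0.14 over the members and −0.03 over all genes. In the spleen 46 of 66 members had a log2 fold change above 0 after Ets1 editing, with a median of 0.15 against 0.00 over all 6979 genes, and Cox7c and Atp5mg rose. In Grk2-KO cells 48 of 67 members had a log2 fold change above 0, with a median of 0.07 against 0.02 over all 6985 genes, and 0 members passed the test. Members are not independent replicates of a genotype, and no test was made over them as a group. They also lie in shorter genes, with a median span of 6422 bases in the parenchyma table against 21065 over all genes tested. The part of gene length was not tested.

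**Figure D1:**
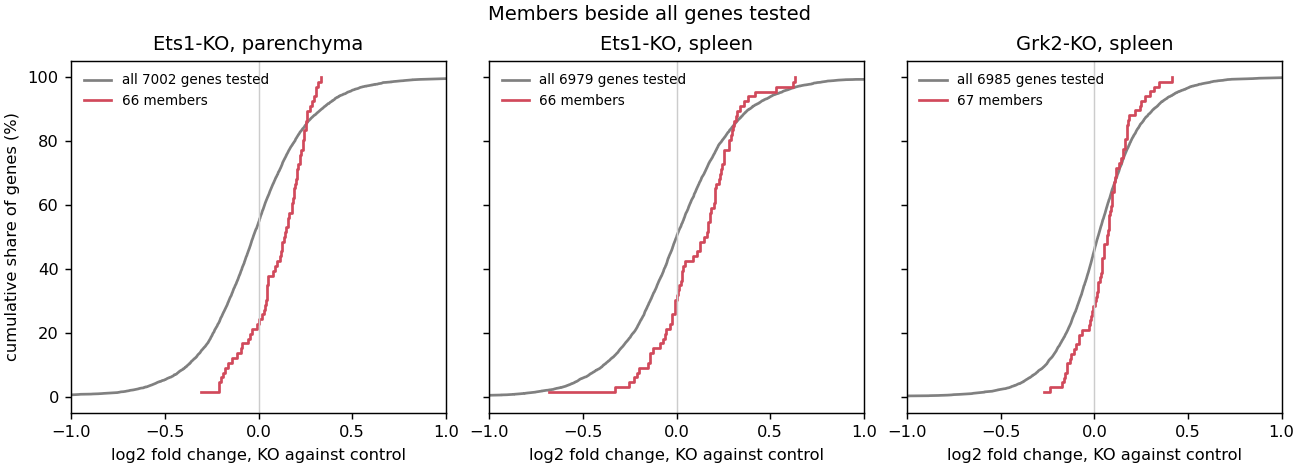
Cumulative share of genes (y axis, percent) by log2 fold change of KO against control (x axis) in the 3 tables, for the members (red) and for all genes tested (grey). The red curve lies to the right of the grey one around its middle in both Ets1 tables, with medians of 0.14 and 0.15 for the members, and closer to it in the Grk2 table, with a median of 0.07.

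Few members passed the test. In the parenchyma 1 of 66 members was called higher (1.52%; limma, adjusted p under 0.05) and 0 lower, while 2.27% of all genes were called higher and 2.96% lower. In the spleen 2 of 66 members (3.03%) were called higher after Ets1 editing and 0 lower, beside 1.02% of all genes called higher and 1.2% lower. After Grk2 editing 0.931% of all genes were called higher and 0.63% lower, and 0 of 67 members either way. Of these 67 members, 5 were higher at an unadjusted p under 0.05 (7.46%, near the 6.61% of all genes) and 0 lower (3.81% of all genes). With edgeR and DESeq2 0 members were called as well, beside 90 and 9 of all 6985 genes. In the parenchyma 14 of 66 members (21.2%) were higher at an unadjusted p under 0.05, beside 7.07% of all genes, and 1 was lower, beside 9.87%. In the spleen after Ets1 editing 14 of 66 (21.2%) were higher, beside 6.65% of all genes, and 0 lower, beside 7.45%.

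Members were also counted by their direction in the 3 replicate pairs. In the parenchyma 24 of 66 members were higher in KO cells in all 3 pairs, where 16.3% of all genes were, and 3 were lower in all pairs, where 20.9% of all genes were. In the spleen 24 of 66 members were higher in all pairs after Ets1 editing, beside 17% of all genes, and 6 were lower, beside 18.2%. In Grk2-KO cells 18 of 67 members were higher in all pairs, beside 17.7% of all genes, and 3 were lower, beside 13.6%. All KO libraries lay above all control libraries for 13 members in the parenchyma (7.87% of all genes), for 9 in the spleen after Ets1 editing (8.04%) and for 2 after Grk2 editing (7.59%). All KO libraries lay below all controls for 2 members in the parenchyma (10.5% of all genes), for 2 in the spleen after Ets1 editing (8.88%) and for 0 after Grk2 editing (4.62%).

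**Figure D2:**
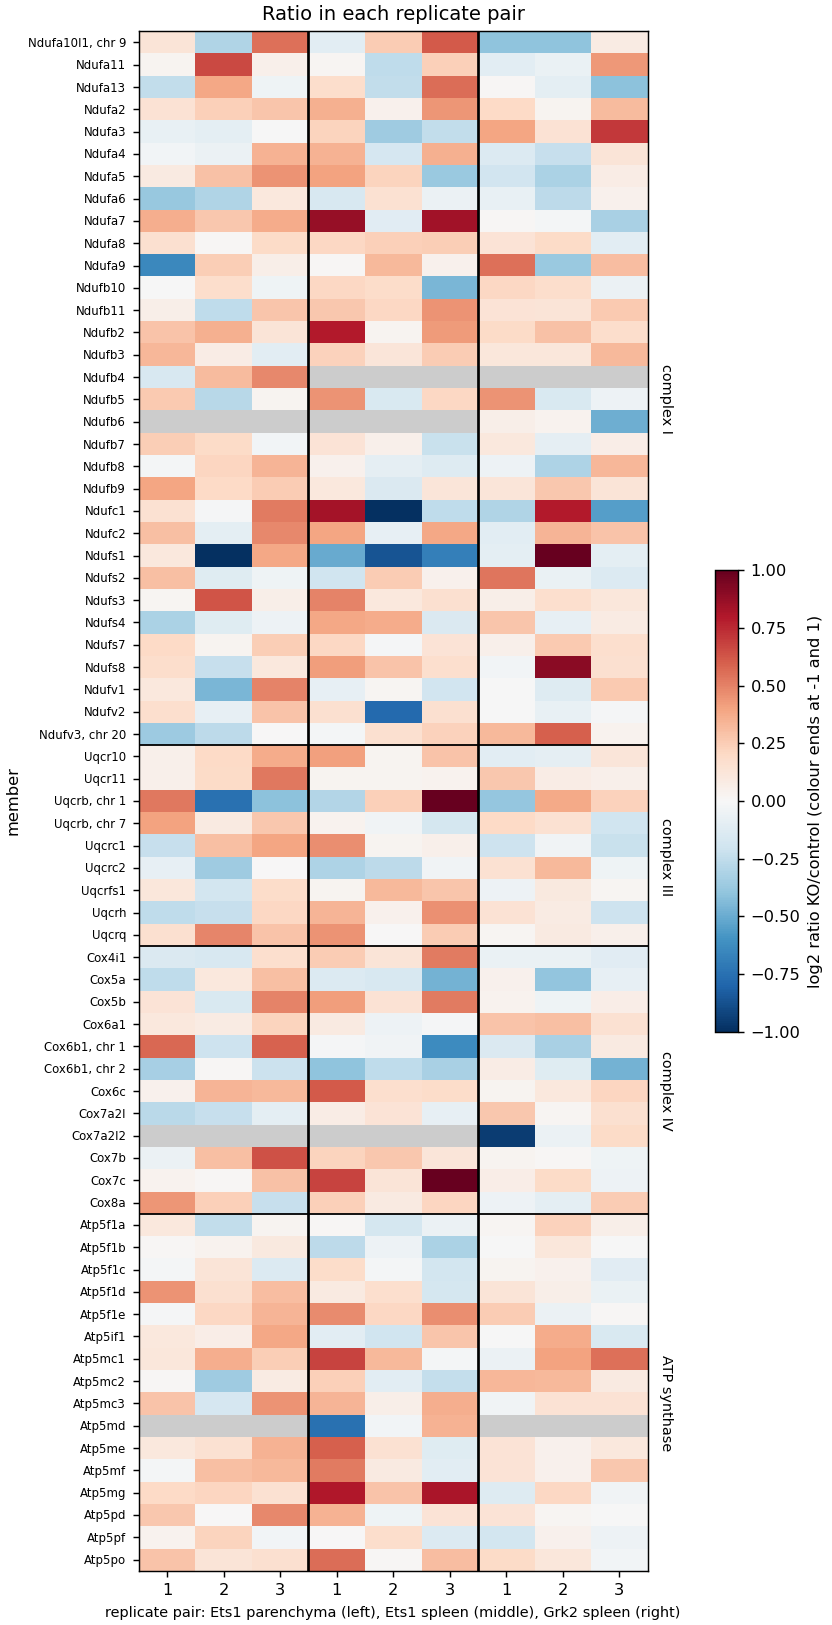
Log2 ratio of KO to control (colour) for each member (rows, by complex) in each replicate pair (columns) of the 3 tables, with grey where a member was under the minimum in a table. Red prevails in the 3 parenchyma columns, where 45, 40 and 53 of 66 members were above 0, and the lowest value is that of Ndufs1 in pair 2 of the parenchyma (−1.42), past the end of the colour scale at −1.

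The promoters of the members that passed the test are shown as RefSeq gives them for GRCr8, a later build than that of the tables, as a window of 300 bases around the start of the gene. Capitals mark matches, on either strand, to any of 4 short motifs that were searched, namely GCATGCGC (NRF1), CCGGAAG (ETS), AAGATGGC (YY1) and GGGCGG (GC box).
Uqcrq (chr10:38089929-38090228, minus strand): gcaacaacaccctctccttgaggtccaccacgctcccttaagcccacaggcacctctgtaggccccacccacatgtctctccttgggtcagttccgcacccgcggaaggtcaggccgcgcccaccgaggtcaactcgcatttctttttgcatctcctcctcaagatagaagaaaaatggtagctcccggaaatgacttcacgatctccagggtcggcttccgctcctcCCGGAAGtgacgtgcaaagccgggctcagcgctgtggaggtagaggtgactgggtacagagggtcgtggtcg
Cox7c (chr2:18579121-18579420, minus strand): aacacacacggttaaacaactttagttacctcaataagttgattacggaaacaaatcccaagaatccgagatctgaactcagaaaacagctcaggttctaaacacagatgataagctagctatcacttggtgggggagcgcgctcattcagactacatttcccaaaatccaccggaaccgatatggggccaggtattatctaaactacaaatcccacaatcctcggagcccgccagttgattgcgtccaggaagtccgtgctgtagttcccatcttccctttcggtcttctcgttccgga
Atp5mg (chr8:54130358-54130657, minus strand): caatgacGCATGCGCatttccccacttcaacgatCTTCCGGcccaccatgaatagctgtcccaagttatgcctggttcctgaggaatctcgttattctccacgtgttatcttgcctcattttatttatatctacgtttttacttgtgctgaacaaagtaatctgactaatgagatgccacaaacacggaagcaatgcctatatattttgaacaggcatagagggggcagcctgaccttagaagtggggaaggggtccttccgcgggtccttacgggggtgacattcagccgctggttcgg

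Uqcrq held 1 match to the ETS letters on its own strand, Atp5mg 1 to the NRF1 letters and 1 to the ETS letters on the opposite strand, and Cox7c none of the 4. By symbol, 57 of 67 member names had a promoter in this set. The ETS letters, the core recognised by ETS1 and its relatives, were in 16 of these 57 promoters (28.1%) and in 8.75% of all 33469 promoters of the same length. The NRF1 letters, named for a regulator of respiratory genes, were in 7 (12.3%, against 2.47%), the YY1 letters in 13 (22.8%, against 3.17%) and the GC box in 20 (35.1%, against 33.1%). The set of all promoters was not limited to symbols with 1 promoter or to genes tested here, as the members were. These shares are thus not those of matched sets. Members with the ETS letters had a median log2 fold change of 0.06 in the Ets1-KO parenchyma (n = 16) and those without of 0.16 (n = 40). In the spleen these medians were 0.20 and 0.13 (n = 39 without), so that the order of the groups was the opposite. Members were matched by symbol, so that both rows of Cox6b1 were counted without the letters from 1 promoter. A match is a description of these letters and not of a bound site.

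Complex I, the largest of the complexes, had a median log2 fold change of 0.12 in the parenchyma, where 25 of 31 members lay above 0. Its medians in pairs 1, 2 and 3 were 0.11, 0.01 and 0.19. In the spleen Ets1 table the median was 0.12, with 21 of 30 members above 0, and in the Grk2 table it was 0.09, with 21 of 31 above 0. No complex I member was called in any of these comparisons. Ndufb9, an accessory subunit and the complex I member with the highest summed count, had 246, 261 and 236 normalized counts in parenchyma controls and 322, 300 and 282 in Ets1-KO cells. All KO libraries lay above all controls, with a log2 fold change of 0.28 ± 0.10 (SE, the standard error; limma, adjusted p = 0.0852), and edgeR called it (adjusted p = 0.0499). Its spleen values were 300, 364 and 285 in controls against 323, 328 and 310 in Ets1-KO cells, which overlapped.

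The complex I member with the largest positive log2 fold change was Ndufa7, a further accessory subunit, in both Ets1 tables. In the parenchyma it had 99.0, 83.7 and 78.6 normalized counts in controls and 127, 101 and 102.01 in KO cells, with a log2 fold change of 0.33 ± 0.15 (SE; limma, adjusted p = 0.189). In the spleen it had 60.2, 87.1 and 40.74 in controls and 111, 80.6 and 73.7 in KO cells, with a log2 fold change of 0.53 ± 0.20 (SE; limma, adjusted p = 0.195). The groups overlapped in the spleen, where control 2 was above 2 of the KO libraries. Without replicate 2 the spleen value was 0.86, and it was then called (limma, adjusted p = 0.0104).
Ndufs1, which carries iron-sulfur clusters of the catalytic core, had the most negative log2 fold change of complex I in both Ets1 tables. Its normalized counts in the spleen were 20.8, 29.0 and 15.7 in controls and 14.4, 15.5 and 9.37 in KO cells, with a log2 fold change of −0.68 ± 0.34 (SE; limma, adjusted p = 0.364). Between 10 and 27 reads per library lay behind these values. In the parenchyma it had 16.8, 39.5 and 19.7 in controls and 18.2, 14.2 and 26.1 in KO cells, a difference that control 2 set.
The 7 catalytic core members had median log2 fold changes of 0.05 in the parenchyma, 0.03 in the spleen after Ets1 editing and 0.11 after Grk2 editing, and the accessory members of 0.12 (n = 24), 0.16 (n = 23) and 0.08 (n = 24). In the Grk2 table Ndufa3, an accessory subunit, was highest, with 42.3, 42.1 and 36.4 in controls and 55.9, 46.6 and 60.0 in KO cells (log2 fold change 0.41 ± 0.19, SE; limma, adjusted p = 0.419). Ndufa10l1 of chromosome 9 was lowest, with 84.5, 68.7 and 66.8 in controls and 63.8, 51.8 and 70.9 in KO cells (log2 fold change −0.24). Ndufa4 is counted here by its name, although its protein is known as a subunit of complex IV.

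**Figure D3:**
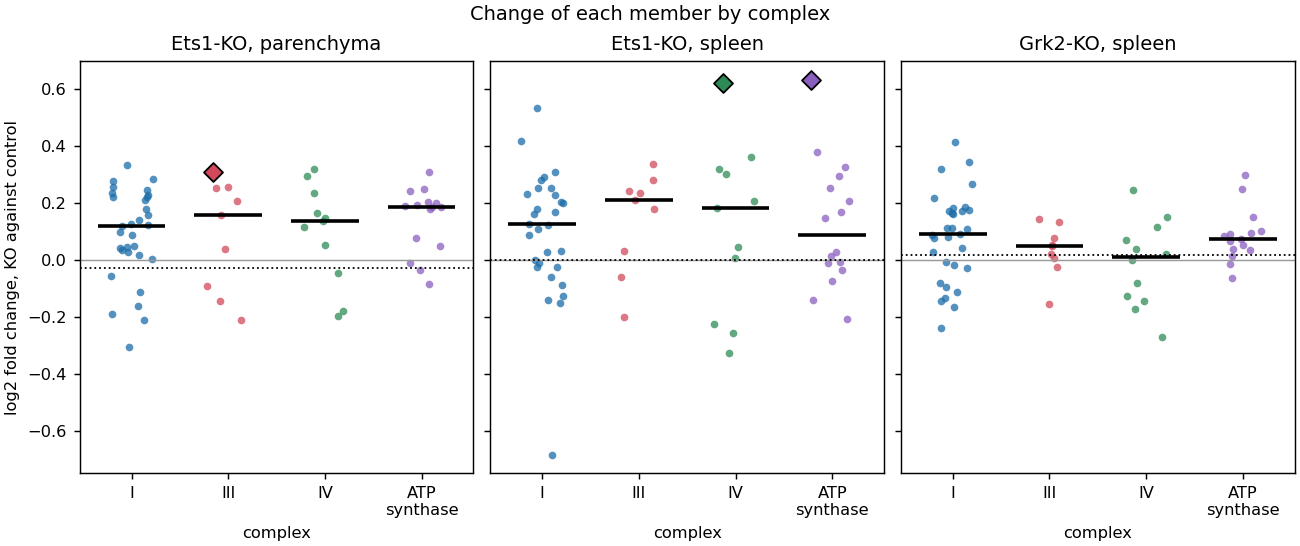
Log2 fold change of KO against control (y axis) of each member by complex (x axis) in the 3 tables, with a black bar at the median of each complex, a dotted line at the median of all genes tested and diamonds for members that passed the test. The 3 diamonds are Uqcrq in the parenchyma and Cox7c and Atp5mg in the spleen, and the complex medians lie between 0.01 and 0.21.

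Complex III had a median log2 fold change of 0.16 in the parenchyma, 0.21 in the spleen after Ets1 editing and 0.05 after Grk2 editing, over 9 members each. Without replicate 3 the parenchyma median was 0.04, and without replicate 1 the Ets1 spleen median was 0.13. Uqcrq (ENSRNOG00000048174), a small subunit next to cytochrome b, spans bases 38779131 to 38782419 of chromosome 10 in Rnor_6.0. In the parenchyma its normalized counts were 310, 289 and 293 in controls and 346, 404 and 357 in Ets1-KO cells, so that every KO library was above every control. It rose from 297 ± 11.4 to 369 ± 31.1 (SD, n = 3), with a log2 fold change of 0.31 ± 0.10 (SE; limma, adjusted p = 0.0347). Over the 3 libraries against 3 a two-sided exact permutation test gave p = 0.1, the smallest that it can give. The call was lost without the replicate block (adjusted p = 0.114), without the trend of the variance on level (0.434), without the filter (0.118) and with DESeq2 (0.290), and held with edgeR (0.0152). Without replicate 2 the log2 fold change was 0.22 with an adjusted p of 0.485, and without replicate 3 it was 0.32 with an adjusted p of 0.0767. In the spleen Uqcrq had 326, 402 and 288 in controls and 445, 403 and 344 in Ets1-KO cells (log2 fold change 0.24, limma, adjusted p = 0.381), and its effect differed between the tissues by 0.07 (adjusted p = 0.898).
Uqcrh, the hinge protein of complex III and its member with the highest summed count, had 550, 465 and 435 in parenchyma controls and 461, 397 and 503 in KO cells (log2 fold change −0.09). In the spleen it had 339, 427 and 306 in controls and 429, 441 and 420 in Ets1-KO cells (log2 fold change 0.28 ± 0.12, SE; limma, adjusted p = 0.275). The KO libraries there were tightly grouped, and control 2 lay among them. The core proteins Uqcrc1 and Uqcrc2 differed in sign, and Uqcrc2 was 106, 113 and 113 in spleen controls against 85.6, 94.3 and 110 in Ets1-KO cells (log2 fold change −0.20), while in the Grk2 table Uqcrc1 was the lowest (−0.16) and Uqcrc2 the highest (0.14) of complex III. Uqcrb is listed on chromosomes 7 and 1, and reads of near-identical copies can be divided between such rows. On chromosome 1 it spans only bases 94718401 to 94718876. The chromosome 1 row had the most negative log2 fold change of complex III in the parenchyma (−0.21) and the most positive in the Ets1 spleen table (0.34), with adjusted p of 0.749 and 0.575 from limma.

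Complex IV had a median log2 fold change of 0.14 in the parenchyma and 0.18 in the spleen after Ets1 editing, with 8 of 11 members above 0 in each, and of 0.01 after Grk2 editing, with 7 of 12 above 0. Without replicate 3 the parenchyma median was 0.02. Cox7c (ENSRNOG00000030237), a small subunit of the complex, spans bases 14699881 to 14701903 of chromosome 2 in Rnor_6.0. Its normalized counts in the Ets1 spleen table were 171, 211 and 118 in controls and 273, 231 and 246 in KO cells. It rose from 166 ± 46.8 to 250 ± 21.5 (SD, n = 3), with a log2 fold change of 0.62 ± 0.15 (SE; limma, adjusted p = 0.0253). All KO libraries were above all controls (two-sided exact permutation test, p = 0.1). The call was lost without the block (adjusted p = 0.0808), without the trend (0.378), with DESeq2 (0.116), without replicate 1 (0.559) and without replicate 3 (0.124), where the log2 fold change was 0.40. Between 75 and 196 reads per control library and between 372 and 399 per KO library lay behind the values.
Cox7c was 310, 303 and 277 in parenchyma controls against 318, 305 and 340 in Ets1-KO cells (log2 fold change 0.11, limma, adjusted p = 0.608). The difference of its Ets1 effect, parenchyma minus spleen, was −0.51 (SE 0.18; limma, unadjusted p = 0.00785 and adjusted p = 0.143). In the Grk2 table it had 1328, 1237 and 1379 in controls and 1387, 1415 and 1332 in KO cells (log2 fold change 0.07).
The lowest complex IV member in the parenchyma was Cox7a2l, known as a factor of supercomplex assembly, with 376, 361 and 330 in controls and 311, 308 and 308 in KO cells. All KO libraries were below all controls, with a log2 fold change of −0.20 ± 0.10 (SE; limma, adjusted p = 0.264). Its log2 fold changes were 0.04 and 0.15 in the Ets1 spleen and Grk2 tables. The row of Cox6b1 on chromosome 2 was lowest in the Ets1 spleen table, with 60.2, 64.5 and 61.1 in controls and 45.2, 54.0 and 48.7 in KO cells (log2 fold change −0.33, adjusted p = 0.474), and Cox6b1 on chromosome 1 was highest in the parenchyma (0.32, with 14.7 to 28.3 normalized counts per library). As with Uqcrb, reads may be divided between the Cox6b1 rows, and that of chromosome 2 spans only bases 211337270 to 211337531. Cox6a1 had the lowest p of any member in the Grk2 table, with 370, 341 and 364 in controls and 450, 420 and 405 in KO cells (log2 fold change 0.24 ± 0.08, SE; limma, adjusted p = 0.143). All Grk2-KO libraries were above all controls. Cox7a2l2 was lowest in that table, with 37.9, 38.8 and 33.4 in controls and 19.2, 37.3 and 38.2 in KO cells (log2 fold change −0.27), a value set by KO library 1.

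Complex IV is known for isoforms that differ between tissues. Of the paired isoforms, Cox4i1 and Cox6a1 were well above the minimum, while Cox4i2, Cox6a2, Cox7a1 and Cox8b were listed at 0 in every library of all 3 tables. Atp5pb and Ndufa1, general subunits of ATP synthase and complex I, were also listed at 0 in every library of both Ets1 tables, so that a 0 here does not show that a gene was not expressed. Cox7a2 is not among the 85 names. Cox4i1 had 311, 365 and 279 in Ets1 spleen controls and 371, 399 and 401 in KO cells (log2 fold change 0.30, limma, adjusted p = 0.231), and log2 fold changes of −0.05 in the parenchyma and −0.08 in the Grk2 table. Cox8a had log2 fold changes of 0.15, 0.18 and 0.04.

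ATP synthase had the highest median of the 4 groups in the parenchyma, 0.19, with 12 of 15 members above 0, a median of 0.09 in the spleen after Ets1 editing with 10 of 16 above 0, and of 0.07 after Grk2 editing with 13 of 15 above 0. Without replicate 1 the Ets1 spleen median was 0.03, and without replicate 2 or 3 it was 0.15 and 0.14. Atp5mg (ENSRNOG00000028884), the g subunit of the membrane part, spans bases 49220442 to 49227273 of chromosome 8 in Rnor_6.0. Its normalized counts in the Ets1 spleen table were 212, 252 and 171 in controls and 370, 306 and 302 in KO cells, and every KO library was above every control. It rose from 212 ± 40.5 to 326 ± 38.0 (SD, n = 3), with a log2 fold change of 0.63 ± 0.13 (SE; limma, adjusted p = 0.00847). Without replicate 1 its log2 fold change was 0.55 and its adjusted p was 0.511, and without the trend its adjusted p was 0.335, while the call held without the block (0.0394), with edgeR (0.00138) and with DESeq2 (0.0339).
In the parenchyma Atp5mg had 234, 307 and 257 in controls and 269, 356 and 286 in Ets1-KO cells (log2 fold change 0.19, limma, adjusted p = 0.338). The difference of the effect, parenchyma minus spleen, was −0.44 (SE 0.16; limma, unadjusted p = 0.00935 and adjusted p = 0.158). In the Grk2 table it had 285, 268 and 266 in controls and 261, 310 and 259 in KO cells (log2 fold change 0.01).
Atp5f1e, the epsilon subunit of the central stalk, had 483, 598 and 454 in Ets1 spleen controls and 670, 689 and 628 in KO cells, without overlap. Its log2 fold change was 0.38 ± 0.11 (SE; limma, adjusted p = 0.0739), and it was chosen for naming after its values were seen. It was called with upper quartile (adjusted p = 0.0456) and TMM scaling (0.0352), with edgeR (0.0453) and without replicate 2 (0.0215). Atp5f1b, the catalytic beta subunit, was the lowest of ATP synthase in that table, with 474, 424 and 367 in controls and 396, 408 and 295 in KO cells (log2 fold change −0.21, adjusted p = 0.426).
Atp5me, a membrane subunit with the highest summed count of all members, had 791, 718 and 692 in parenchyma controls and 849, 796 and 882 in KO cells (log2 fold change 0.20 ± 0.08, SE; limma, adjusted p = 0.134). Atp5f1d, the delta subunit, had the highest log2 fold change of ATP synthase in the parenchyma, 0.31, with 84.1, 90.3 and 101 in controls and 115, 101 and 126 in KO cells. Atp5if1, the inhibitor of the enzyme's reverse activity, had log2 fold changes of 0.19, −0.01 and 0.07 in the 3 tables. Atp5mc1, Atp5mc2 and Atp5mc3 encode the same mature c subunit of the rotor ring. Their log2 fold changes were 0.24, −0.09 and 0.19 in the parenchyma, 0.33, −0.03 and 0.25 in the Ets1 spleen table and 0.30, 0.25 and 0.08 in the Grk2 table, and none passed. Without replicate 3 Atp5mc1 was at 0.50 in the Ets1 spleen table and was called (limma, adjusted p = 0.0314). Atp5pf, a peripheral stalk subunit, was the lowest of ATP synthase in the Grk2 table (−0.07).

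**Figure D4:**
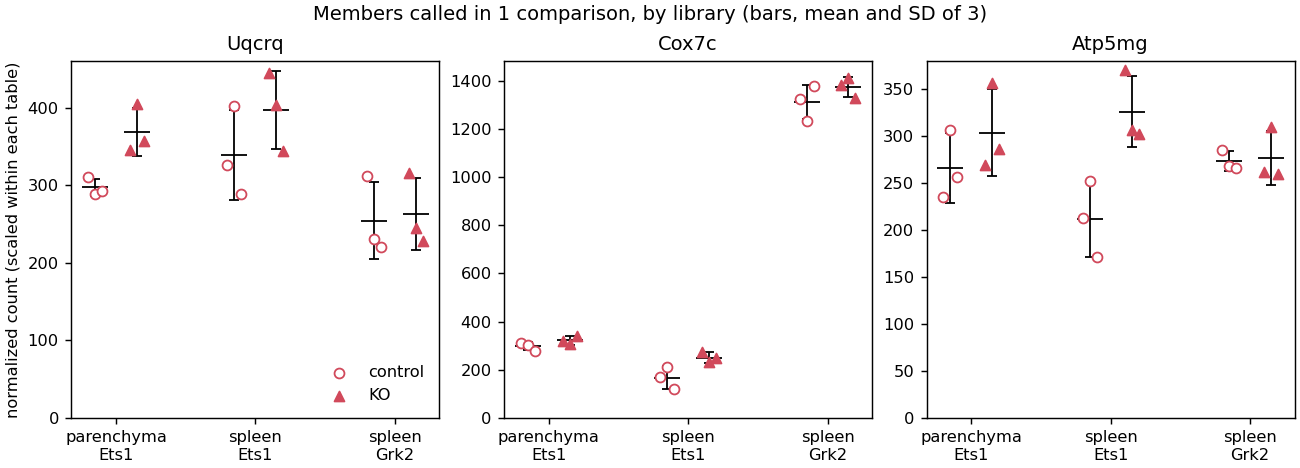
Normalized counts (y axis) of Uqcrq, Cox7c and Atp5mg in each library of the 3 tables (x axis), with open circles for control, filled triangles for KO and bars at the mean and SD of 3 libraries. The Ets1-KO libraries stand above all controls for Uqcrq in the parenchyma and for Cox7c and Atp5mg in the spleen, and Cox7c is at 1237 to 1415 in the Grk2 table, far above its levels in the others.

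The Ets1 effect was compared directly between the tissues for 65 members with limma on the ratios of the pairs. Of these, 0 were called, beside 0.675% of 6520 genes called with a more positive effect in the parenchyma and 1.43% with a more negative one, and 4 members were more negative in the parenchyma at an unadjusted p under 0.05 (6.15%, beside 8.63% of all genes) and 0 more positive (5.12% of all genes). These were Cox7c, Atp5mg, Uqcrh and Cox4i1, the last pair with differences of −0.37 (adjusted p = 0.231) and −0.35 (adjusted p = 0.292), and both were chosen for naming after their values were seen. The median difference was −0.02 over the members and −0.04 over all genes. By complex it was −0.04 for complex I, −0.02 for complex III, −0.04 for complex IV and −0.00 for ATP synthase, each smaller than the SD of its values in the 3 pairs (0.13, 0.06, 0.20 and 0.16). For these SDs, pairs of the same number were subtracted across the tissues. The labels do not give this match and the test did not use it. The most negative difference of complex I was that of Ndufs4 (−0.37, adjusted p = 0.46 from limma), an accessory subunit, and the most positive that of Ndufs1 (0.38, adjusted p = 0.791). The most negative and the most positive of complex III were those of both Uqcrb rows, chromosome 1 (−0.55) and chromosome 7 (0.31), the most positive of complex IV that of Cox6b1 on chromosome 1 (0.54) and that of ATP synthase Atp5f1d (0.28), none of them called.

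Shares of reads were summed over all 85 names, also those under the minimum. These names took between 1.05% and 1.18% of the reads on nuclear genes in parenchyma controls and between 1.22% and 1.25% in Ets1-KO cells, without overlap. The names of ATP synthase alone took 0.475% ± 0.0192 in controls and 0.528% ± 0.0173 in KO cells (SD, n = 3). In the Ets1 spleen table all names took 1.29% ± 0.122 in controls and 1.41% ± 0.0830 in KO cells, and in the Grk2 table they took 1.69% ± 0.110 and 1.73% ± 0.103 (SD, n = 3), and in both the groups overlapped.

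**Figure D5:**
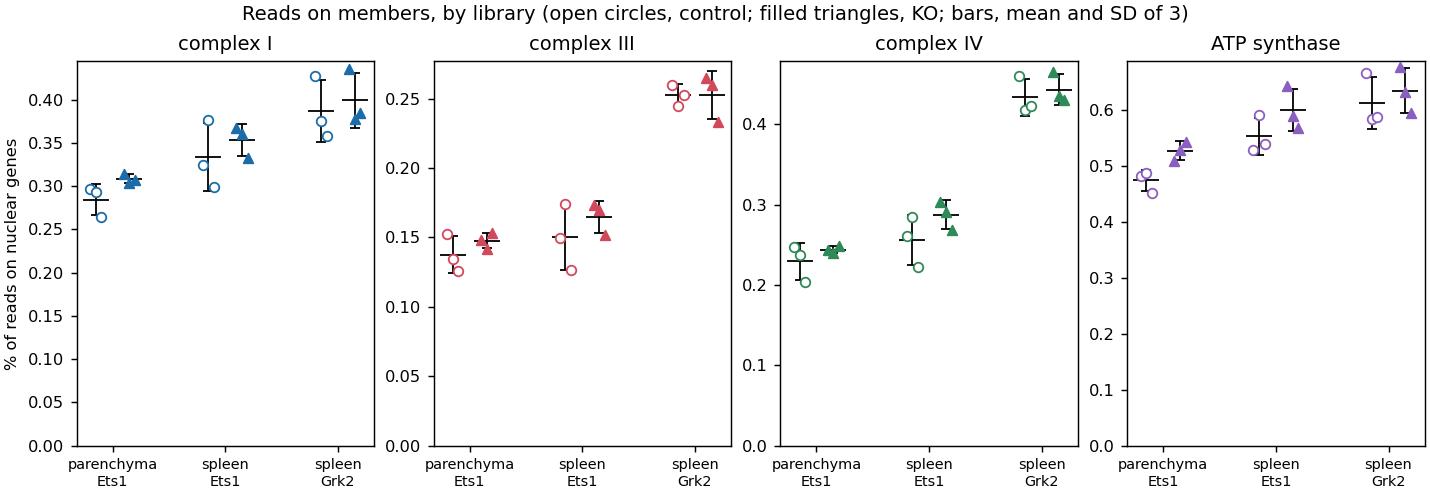
Share of the reads on nuclear genes that fell on each complex (y axis, percent) by library in the 3 tables (x axis), with open circles for control, filled triangles for KO and bars at the mean and SD of 3 libraries. All names of a complex were summed, also those under the minimum. In the parenchyma all KO libraries lie above all controls for ATP synthase (0.509% to 0.544% against 0.453% to 0.488%) and for complex I (0.304% to 0.314% against 0.264% to 0.296%).

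The 2 sets of spleen controls differed in the levels of many genes, members among them. Cox7c had CPM values (over the reads on nuclear genes) of 156, 197 and 103 in the controls of the Ets1 table and 1338, 1235 and 1340 in those of the Grk2 table, 8.58-fold more in the mean. Uqcrfs1, the Rieske iron-sulfur protein of complex III, was 4.59-fold, Uqcrh 3.21-fold and Cox6c 3.07-fold higher in the Grk2 controls, and Atp5mf 2.04-fold lower, while Cox4i1 was at 289 ± 49.2 and 292 ± 27.1 (SD, n = 3). The difference in log2(mean CPM + 1) between the controls was beyond 1 for 14 of 65 members (21.5%), 10 of them higher and 4 lower in the Grk2 table, and for 23.0% of all 6473 genes. Between parenchyma and spleen controls of the Ets1 tables it was beyond 1 for 1 of 65 members and for 13.1% of all 6502 genes. This member, Atp5f1b, was at 190 ± 15.3 CPM in the parenchyma and 383 ± 57.3 in the spleen (SD, n = 3), a ratio of 2.01. The added 1 kept a pair of low members within this limit whose plain ratios were past it, namely Cox6b1 of chromosome 1, 2.03-fold higher in the spleen controls than in the parenchyma, and Ndufc1, 2.02-fold higher in the Grk2 controls than in those of the Ets1 spleen table. These tables were scaled separately and the libraries are from different experiments or tissues, so that no test was made. Uqcrfs1, Cox6c, Ndufa3, Uqcrb, Atp5mf, Ndufv1, Cox7a2l2, Ndufb6, Atp5f1b, Cox6b1 and Ndufc1 were chosen for these values after they were seen.

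Other genes of the pathway were counted from lists. The 4 subunits of complex II, which feeds electrons from succinate, had median log2 fold changes of 0.05, −0.13 and 0.01 in the 3 tables. Cycs (cytochrome c) had log2 fold changes of 0.04, −0.24 and −0.04. Cyc1, whose name the rule does not match, had −0.02, 0.26 and 0.05. None of these was called. Of 50 assembly factors 28, 29 and 33 were tested, with 0 called and medians of 0.03, 0.22 and 0.10. Of 18 regulators of mitochondrial gene expression 11, 14 and 14 were tested, with 0 called and medians of −0.10, −0.05 and −0.03. Of 12 mitochondrially encoded subunits tested, 0 rose and 1 fell in each table, namely Mt-atp8 in both Ets1 tables and Mt-nd6 in the Grk2 table. Mt-atp8, a membrane subunit of ATP synthase, had 1772, 1738 and 1826 in Ets1 spleen controls and 759, 711 and 1903 in KO cells (log2 fold change −0.82, limma, adjusted p = 0.00847), with KO library 3 at the level of the controls. That library also had 21.0% of its reads on mitochondrial genes, against 14.1% and 14.9% in the other KO libraries and 17.3% to 18.6% in controls. In the parenchyma Mt-atp8 had 2549, 3051 and 2064 in controls and 2281, 2103 and 2106 in KO cells. Its log2 fold change there was −0.22 (limma, adjusted p = 0.0266), although control 3 lay below every KO library. Mt-nd6, a complex I subunit, had 205, 178 and 191 in Grk2 controls and 112, 188 and 132 in KO cells (log2 fold change −0.44, adjusted p = 0.0157 from limma). Mt-atp8 overlaps Mt-atp6, and Mt-nd6 lies opposite to Mt-nd5, so that reads of these neighbours may not be told apart.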

How the data were processed

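Bulk 3′ mRNA-seq of 18 rat libraries in 6 groups was analysed. Per the processing notes and the methods, the authors used STAR 2.7.2b for alignment to Rnor_6.0 and HTSeq 1.0.0 for counting, and scaled each library by its DESeq2 size factor (option poscounts). The deposited signal values are these normalized counts, in 3 tables scaled separately. In each library 100% of values were whole multiples of 1 step within a tolerance of 0.01 reads, which gave the reads per gene. For 2 Ets1-KO libraries of the parenchyma the step lies so close to 1 read that this does not tell scaled from unscaled values.

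Genes were kept for which the 6 libraries of a table had a mean of 10 or more. Their log2(normalized count + 1) values were fitted in limma 3.58.1 under R 4.3.3 (lmFit, and eBayes with trend), with the replicate number as the blocking factor. In the parenchyma the fit gave the prior an infinite weight, so that each gene was tested against the spread of genes at its level and not against its own. Tests were two-sided, with Benjamini-Hochberg adjustment over all genes tested and a threshold of 0.05. On this scale the changes of low genes are understated. The tissue difference was tested with limma on the log2 ratios of the pairs. The block follows the methods, which correct per animal where applicable, and the transfer of KO and control cells together. The labels do not say which libraries share an animal, and deviations of same-numbered libraries correlated at −0.00 to 0.18, so that the pairing is not shown by the data. Nor do the labels say that replicates are separate animals, and p-values then measure only the spread between these libraries. The fits were tested on simulated data without a replicate effect. For the tissue difference the share of changed genes recovered there was below a limit set beforehand. That limit was then replaced, for every fit, by a limit relative to a test that was given the true variances.

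Members and lists were chosen with earlier results of these data known. The members named are, per comparison, up to 5 called rises and falls alike in all pairs and the largest rise and fall of each complex, and throughout the highest member of each complex and the isoform groups. Others are said to have been chosen after their values were seen.

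Alternatives were a fit without the block, pseudocounts (0.1, 5), minimum means (none, 50), 4 other scalings (quantile, upper quartile, TMM, reads on nuclear genes), leaving out each replicate, no trend, and edgeR 4.0.16 and DESeq2 1.42.0 on the recovered reads. Columns of the authors' own comparisons (fold changes and p-values) and 8 columns of human values were not used.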

Additional observations from a re-analysis of the deposited data

How the results depend on the processing

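The medians of the 4 complexes in the 4 comparisons stayed within the spread of their pair medians in 226 of the values that the alternatives gave and left it in 6, each with a replicate left out. Over the replicates left out, the median of complex III ranged from 0.037 to 0.18 in the parenchyma, from −0.0030 to 0.059 after Grk2 editing and from −0.13 to 0.13 for the tissue difference, and that of complex I after Grk2 editing from 0.057 to 0.11. Other medians moved by over 1.5 times or turned in sign within the spread of their pairs, namely complex IV in the parenchyma (0.025 to 0.16) and after Grk2 editing (−0.015 to 0.0395), ATP synthase (0.028 to 0.15) and complex III (0.13 to 0.26) in the Ets1 spleen table, complex I in the parenchyma (0.0795 to 0.16), and the tissue differences of complex I (−0.058 to 0.029), complex IV (−0.13 to 0.16) and ATP synthase (−0.079 to 0.097). The count of called members ranged from 0 to 2 in the parenchyma and from 0 to 6 in the spleen after Ets1 editing, where Atp5f1e, Cox5b, Ndufa7 and Ndufb2 joined Atp5mg and Cox7c without replicate 2, and Atp5mc1 joined Atp5mg without replicate 3. In the parenchyma Cox7b joined Uqcrq without replicate 1. Over all 6979 genes of the Ets1 spleen table, 155 were called with all replicates. This count was 3, 241 and 219 without replicates 1, 2 and 3. Of all 7002 genes in the parenchyma 366 were called with all replicates, and 217, 165 and 278 without replicates 1, 2 and 3.

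With no replicate block, 0 members were called in the parenchyma and 1 (Atp5mg) in the spleen after Ets1 editing, where Cox7c had an adjusted p of 0.0808 (limma). Of all genes, 200 of 7002 and 71 of 6979 were then called, against 366 and 155 with the block. The pairing changed no count of members after Grk2 editing or for the tissue difference. Over all genes, 19 of 6985 were called after Grk2 editing without the block, against 109 with it. For the tissue difference 47 of 6520 were called without it, against 137 with it. Without the trend 0 members were called in either Ets1 table, beside 3 of all 7002 genes in the parenchyma and 0 of 6979 in the spleen. In the parenchyma 0 were called with no filter and with DESeq2 and 2 with edgeR, and DESeq2 called 1 in the spleen after Ets1 editing. Of all genes in the parenchyma, 212 of 13726 were called with no filter, 90 of 7002 with DESeq2 and 354 with edgeR. DESeq2 called 48 of all 6979 genes in the spleen. After Grk2 editing and for the tissue difference 0 were called under every alternative run. Over all genes these fits called between 0 and 116 after Grk2 editing and between 2 and 142 for the tissue difference. The cause of these changes was not tested.

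The sign turned for 15 named values, none of them called. With a replicate left out, the parenchyma values ranged from −0.15 to 0.011 (Cox4i1), −0.66 to 0.25 (Ndufs1), −0.17 to 0.047 (Atp5mc2) and −0.58 to 0.058 (Uqcrb of chromosome 1). Those of the Ets1 spleen table ranged from −0.15 to 0.085 (Atp5if1), −0.033 to 0.038 (Cox6a1), −0.020 to 0.11 (Ndufb9), −0.0026 to 0.11 (Cox7a2l), −0.17 to 0.068 (Atp5mc2) and −0.026 to 0.65 (Uqcrb of chromosome 1). Those after Grk2 editing ranged from −0.063 to 0.11 (Uqcrh), −0.50 to 0.066 (Cox7a2l2), −0.075 to 0.18 (Atp5if1) and −0.072 to 0.10 (Cox8a), and Uqcrq ranged from −0.13 to 0.26 for the tissue difference. In the Ets1 spleen table Atp5if1 was 0.018 with upper quartile and 0.020 with TMM scaling, and Cox6a1 −0.0081 with scaling to nuclear reads. Uqcrh after Grk2 editing was −0.020 (quantile), −0.012 (upper quartile), −0.0053 (TMM), −0.017 (nuclear reads), −0.011 (edgeR) and −0.014 (DESeq2).

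The libraries held few reads for some members, such as Ndufs1 with 10 to 42 reads in the Ets1 tables. The smallest difference that such depths can show was not determined.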

Other observations

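Cytosolic ribosomal protein genes, chosen after the members' values were seen, had a median log2 fold change of −0.16 over 61 genes in the Ets1-KO parenchyma, where 1 rose and 4 fell, and of 0.31 over 58 genes in the Ets1-KO spleen, where 9 rose and 0 fell. In the Grk2 table the median was −0.02 over 60 genes and 0 were called. Mitochondrial ribosomal protein genes had medians of 0.04 (n = 62), 0.07 (n = 62) and 0.06 (n = 63) in the 3 tables, with 0 called.

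Ndufab1, the acyl carrier subunit of complex I whose name the rule does not match, had log2 fold changes of 0.48, −0.13 and −0.17 in the 3 tables (adjusted p = 0.59, 0.927 and 0.812 from limma).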
